A study of Mus musculus with 6 samples.

Results

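The 10 genes described here encode signals that T cells secrete: the cytokine genes Ifng, Il21, Il3, Csf2, Lif and Osm and the chemokine genes Ccl3, Ccl4, Ccl5 and Xcl1. They were taken by symbol from a table of 18446 genes, and all 10 were found by their NCBI gene identifiers. Their RNA was measured in naive CD4+ T cells, helper T cells that have not met antigen, from C57BL/6 mice of 6 to 8 weeks. Cells low in CD44 and high in CD62L were sorted from spleen and lymph nodes and kept with antibodies against CD3 and CD28, which mimic antigen and costimulation, for 0, 6 or 48 h. At each time there was 1 wild-type (WT) library and 1 library labelled Zak-/-, 6 in all. The labels also describe the deficiency as conditional in T cells, which leaves unclear what kind of deletion these mice carry, and they name no Cre driver. They do not say whether cells of several mice were pooled. With 1 library per group there is no replicate spread within a group. Each difference below is between 2 libraries and has no test, and a fit of the label with the 3 times as a block was not run.

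Cytokines are small proteins that a T cell secretes to instruct other cells through receptors, most of which signal through JAK kinases and STAT factors. Chemokines draw cells along a gradient through G-protein-coupled receptors. Naive T cells make little of either, and signals from the T cell receptor start their genes through NFAT, AP-1 and NF-kB within hours. Interferon-gamma and IL-21 are better known from helper cells that have already become polarised, and Ccl5 from late effector and memory cells.

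Values are FPKM, fragment counts scaled to transcript length and to library size, so levels can be compared between genes. Map3k20, which encodes Zak, stood at 0.17, 0.19 and 1.35 FPKM in WT at 0, 6 and 48 h and at 0.1, 0.1 and 1.61 in the libraries labelled Zak-/-. The values were low under both labels at 0 and 6 h, and at 48 h the label with the deletion had the higher value, so the gene-level value does not check the label, and the second genotype is called Zak-KO as labelled. FPKM summed to between 496045 and 546113 per library. Markers of CD4 T cells were high in all 6 libraries, with a sum over 8 genes of 1941.24 to 2345.29 FPKM. The 48 h Zak-KO library listed the fewest genes at 0 (1777) and the 48 h WT library the most (2793). The 6 h WT library came next to the fewest, with 2096.

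The depth sets which members can be read at all. The value of 1 fragment was estimated from low values of genes with a single transcript. Their median between 0.045 and 0.08 FPKM for 1 kb was taken, which gave about 0.0585 to 0.0632 FPKM. The window itself bounds this estimate, so the value is an assumption more than a measurement. A member was called near the detection limit where its value came to 3 fragments or fewer, which is 0.336 to 0.363 FPKM for the short Xcl1 transcript and 0.0436 to 0.0471 for the long Lif transcript. By this rule 7 of the 10 members were near the limit in the resting WT library and 6 in the resting Zak-KO library, against 1 in each 6 h library. None was near it in all 6 libraries, and Lif, Osm and Ccl5 were never near it. Il3 was near it in 5 libraries, Ifng in 4 and Il21 in 3. These fragment numbers are rough estimates. They use the full length of the longest transcript, and the transcript set behind the deposited values is not stated in the labels.

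At rest the members amounted to little besides Osm. It made up 78.6% of the members' summed FPKM in WT (15.26) and 81.3% in Zak-KO (13.54). Ccl5 came next, and the other 8 stood at 0.43 FPKM or less. After 6 h the sum was 56.14 in WT and 56.89 in Zak-KO, led by Ccl4 and Xcl1, and after 48 h it was 46.69 and 39.95. In bulk RNA, more cells that make a cytokine cannot be told apart from more RNA in each cell. A member was counted as apart when its value, after adding 1 FPKM, differed by 2-fold or more. At 6 h, 5 of 10 members were higher by this rule under each label: Ccl4, Xcl1, Ccl3, Lif and Csf2. Of all genes, 5.1% were higher in WT and 5.15% in Zak-KO. At 48 h the same 5 were higher in WT, where 10.5% of all genes were, and 4 in Zak-KO, where 10.9% were; Csf2, at 0.90 FPKM against a resting value listed at 0, missed the rule there. Among genes averaging at least 1 FPKM, the shares higher were 8.94% and 9.08% at 6 h and 17.8% and 18.5% at 48 h. No member was lower by the rule at either time under either label. Of all genes, 0.813% were lower in WT and 0.889% in Zak-KO at 6 h, and 7.08% and 6.87% at 48 h. With a mean of 1 FPKM or more required, the shares lower were 1.39% and 1.52% at 6 h and 12.3% and 12.0% at 48 h. The median log2 change of the 10 members at 6 h was 0.87 in WT and 1.11 in Zak-KO, beside 0.00 and -0.01 over all genes. At 48 h it was 0.87 and 0.66, beside 0.00 and 0.04. In all, 7 members averaged at least 1 FPKM (all but Ifng, Il21 and Il3), and the 5 higher ones are among them. These 5 stood at 0.43 FPKM or less at rest and met that mean only through their stimulated values.

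**Figure D1:**
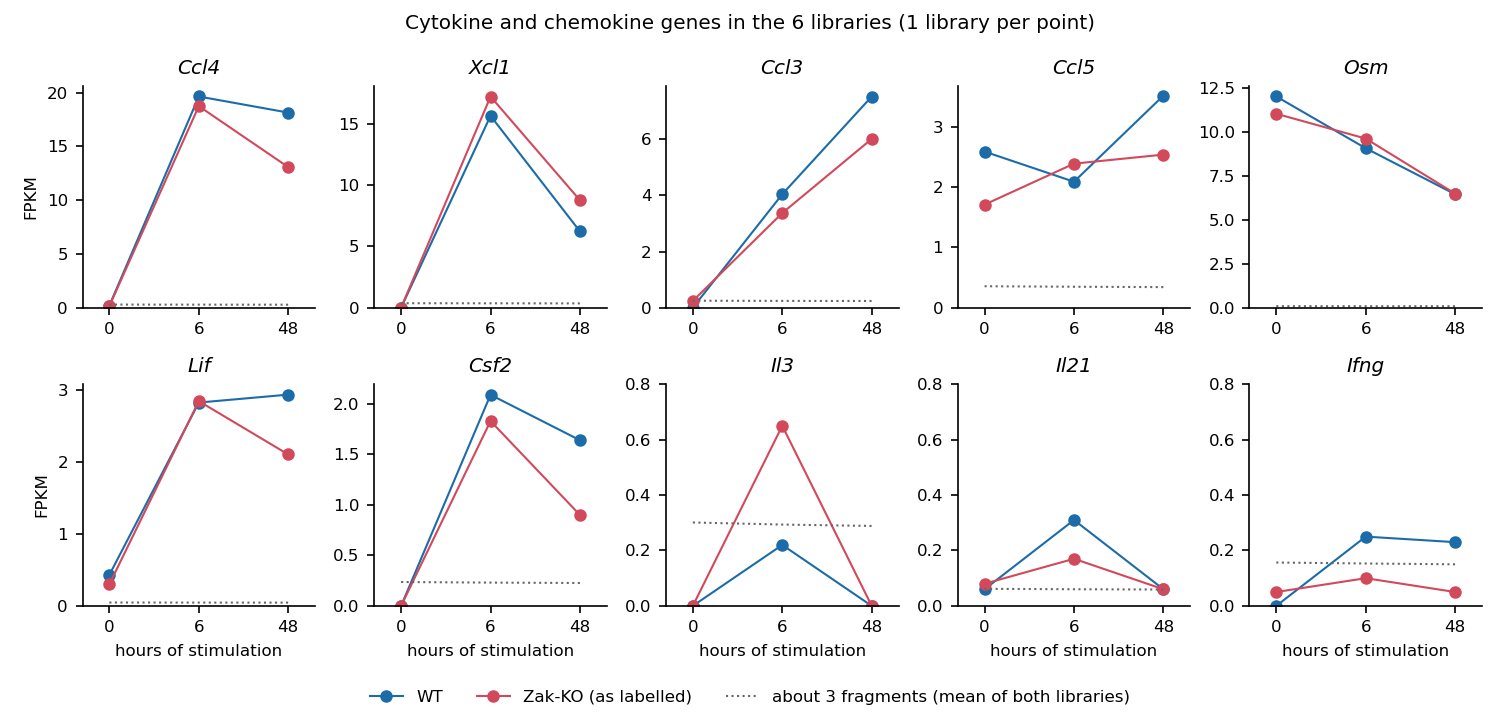
FPKM of each member (y axis, each panel with its own scale from 0) after 0, 6 and 48 h of stimulation (x axis, times spaced evenly) in WT (blue) and Zak-KO as labelled (red), 1 library per point, with the level of about 3 fragments as a dotted line. Ccl4, Xcl1, Ccl3 and Csf2 rise from at or below the dotted line by 6 h, and Lif rises from above it. Osm goes from 11.99 and 11.01 to 6.44 and 6.47 FPKM, and Il3, Il21 and Ifng stay at 0.65 FPKM or less.

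Sequence ahead of the start site is shown for members that were higher after stimulation and for members that stayed low, so that the letters they share can be seen beside their values. RefSeq promoter windows (GRCm38.p6, the build of mm10) were matched for 7 members; Osm, Ccl4 and Ccl5 were not matched. Of the window from 250 bases before the start to 50 after it, the bases from -250 to -21 are printed, 5′ to 3′ on the gene's strand, for 3 genes that were higher after stimulation (Xcl1, Ccl3 and Lif) and 2 that stayed low (Il3 and Ifng). They lie at chr1:164935543-164935772 (minus strand), chr11:83649399-83649628 (minus strand), chr11:4257318-4257547 (plus strand), chr11:54267300-54267529 (minus strand) and chr10:118440796-118441025 (plus strand). Capitals mark matches, on either strand, to GGAAA (the core bound by NFAT, read as TTTCC on the other strand), TGANTCA (AP-1), the NF-kB consensus, TATAAA (the TATA box) and CACGTG (the E-box); no matches overlapped.
Xcl1: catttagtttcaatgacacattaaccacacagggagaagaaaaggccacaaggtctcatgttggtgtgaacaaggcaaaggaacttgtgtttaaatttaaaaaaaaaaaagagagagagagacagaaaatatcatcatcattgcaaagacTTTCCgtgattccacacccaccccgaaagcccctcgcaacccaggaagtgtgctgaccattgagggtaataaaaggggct
Ccl3: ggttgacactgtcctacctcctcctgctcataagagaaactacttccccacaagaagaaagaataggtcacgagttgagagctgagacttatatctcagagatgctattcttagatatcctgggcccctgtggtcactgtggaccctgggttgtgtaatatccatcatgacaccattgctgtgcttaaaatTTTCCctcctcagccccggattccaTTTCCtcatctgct
Lif: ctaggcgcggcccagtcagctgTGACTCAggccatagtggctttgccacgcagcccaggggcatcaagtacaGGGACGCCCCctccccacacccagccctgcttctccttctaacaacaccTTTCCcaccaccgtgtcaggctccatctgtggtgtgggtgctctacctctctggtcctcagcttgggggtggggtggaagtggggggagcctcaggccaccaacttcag
Il3: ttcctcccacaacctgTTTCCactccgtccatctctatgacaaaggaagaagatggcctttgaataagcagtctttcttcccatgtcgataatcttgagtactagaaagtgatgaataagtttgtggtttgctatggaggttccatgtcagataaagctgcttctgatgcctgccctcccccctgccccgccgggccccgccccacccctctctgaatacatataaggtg
Ifng: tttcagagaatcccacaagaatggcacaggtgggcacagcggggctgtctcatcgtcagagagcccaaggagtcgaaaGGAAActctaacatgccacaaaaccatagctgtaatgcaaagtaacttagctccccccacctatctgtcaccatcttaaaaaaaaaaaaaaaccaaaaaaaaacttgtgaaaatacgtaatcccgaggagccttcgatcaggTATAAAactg

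GGAAA was found in 7 of 7 member windows and in 61.3% of the 32851 windows of the table. Both Il3 and Ifng, which stayed low, hold 1 match, as does Xcl1, while Ccl3 holds 2, at -59 to -55 and -34 to -30. Lif is the 1 of 7 with an AP-1 match (-228 to -222) and the 1 of 7 with an NF-kB match (-178 to -169); 7.81% and 8.46% of all windows hold them. Only Ifng has TATAAA, at -30 to -25, as do 13.6% of all windows, and no member has the E-box, which 7.15% hold. For Csf2 the RefSeq start lies 232 bases ahead of the GENCODE M21 start, so its window is not the one next to the GENCODE start, and it is not printed. For the other 6 the start sites are within 23 bases.

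Among the chemokines, Ccl4 reached the highest level of the members. Ccl4 encodes MIP-1 beta, which attracts immune cells to sites of inflammation. It lies on chromosome 11, 83662584 to 83664683 (GENCODE M21, mm10; plus strand). Its resting values were 0.19 FPKM in WT and 0.15 in Zak-KO, about 1.99 and 1.57 fragments, followed by 19.64 and 18.74 at 6 h and by 18.14 and 13.07 at 48 h. Both 0 h values are near the detection limit and all 4 stimulated values are far above it. On FPKM + 1 it was 17.3-fold and 17.2-fold higher at 6 h and 16.1-fold and 12.2-fold at 48 h. Among the 10347 genes averaging at least 1 FPKM, 0.213% were as far apart as Ccl4 at 6 h in WT.

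Ccl3, which encodes MIP-1 alpha, an inflammatory chemokine and a ligand of Ccr1, lies 13.2 kb from Ccl4 on the other strand (83647844 to 83649355). It was listed at 0 in WT and stood at 0.24 FPKM in Zak-KO at rest, then at 4.04 and 3.37 at 6 h and at 7.52 and 6.01 at 48 h. Its value was thus higher at 48 h than at 6 h under both labels, by 1.69-fold and 1.60-fold on FPKM + 1, below the 2-fold rule. Ccl4, next to it, was lower at 48 h than at 6 h under both labels, by 1.08-fold and 1.40-fold. In Zak-KO, where the resting value was not 0, Ccl3 was 3.52-fold higher at 6 h and 5.65-fold at 48 h. In the GENCODE M21 models, neither gene shares a stretch of 24 bases with another gene's transcript. The labels do not state the transcript set or the strand setting behind the deposited values. How fragments were split between these neighbours is therefore uncertain.

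Xcl1 encodes lymphotactin, the chemokine that calls in cross-presenting dendritic cells through Xcr1, and is the only member on chromosome 1 (164931644 to 164935527, minus strand). It was listed at 0 in both resting libraries, stood at 15.63 FPKM in WT and 17.20 in Zak-KO at 6 h, and at 6.21 and 8.75 at 48 h. The 6 h values correspond to about 132 and 147 fragments. No fold is given against 0. From 6 h to 48 h it was lower by 2.31-fold in WT and by 1.87-fold in Zak-KO on FPKM + 1. It was the 1 of 10 members lower by 2-fold at 48 h than at 6 h in WT, where 3.49% of all genes were, and 0 of 10 were in Zak-KO, where 3.73% were (6.15% and 6.55% of genes averaging at least 1 FPKM). With each library scaled by the median ratio the Zak-KO difference passed the rule too (log2 -1.04), and the median of genes averaging at least 1 FPKM moved from 0.02 to -0.12. No member was higher at 48 h than at 6 h by 2-fold under either label, where 5.69% and 6.6% of all genes and 9.32% and 10.8% of those with a mean of 1 FPKM or more were.

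Ccl5 encodes RANTES (chromosome 11, 83525778 to 83530518, minus strand). It was the chemokine gene with a readable level at rest, and it stayed near that level: 2.59, 2.09 and 3.52 FPKM at 0, 6 and 48 h in WT, and 1.71, 2.39 and 2.54 in Zak-KO. These correspond to about 14.4 to 32.0 fragments, so counting error alone is wide, and no time passed the 2-fold rule. The 6 h value lay below the resting one in WT and above it in Zak-KO.

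Osm and Lif encode oncostatin M and leukaemia inhibitory factor, cytokines of the IL-6 family that signal through the shared chain Il6st (gp130). They lie 16.5 kb apart on chromosome 11 on the same strand, Osm at 4236420 to 4241026 and Lif at 4257557 to 4272514. Osm stood at 11.99 FPKM in WT and 11.01 in Zak-KO at rest, at 9.05 and 9.60 at 6 h, and at 6.44 and 6.47 at 48 h. It was the only member whose value was lower at each later time under both labels, down 1.75-fold in WT and 1.61-fold in Zak-KO at 48 h on FPKM + 1, short of 2-fold. Its estimated fragments ranged from 235 to 433, the most of any member. Lif stood at 0.43 and 0.30 FPKM at rest, at 2.82 and 2.84 at 6 h, and at 2.93 and 2.10 at 48 h. It was 2.67-fold and 2.95-fold higher at 6 h and 2.75-fold and 2.38-fold at 48 h. At both later times, under both labels, Osm stood below its own resting level and its neighbour Lif above its own.

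Csf2 and Il3 encode GM-CSF and IL-3, growth factors of myeloid cells that share the receptor chain Csf2rb, and lie 15.6 kb apart on the minus strand of chromosome 11 (54247271 to 54249667 and 54265303 to 54267277). Csf2 was listed at 0 in both resting libraries and stood at 2.09 FPKM in WT and 1.83 in Zak-KO at 6 h, about 27.0 and 23.9 fragments. At 48 h it stood at 1.64 and 0.90, about 22.4 and 11.5 fragments. Il3 was listed at 0 at rest and again at 48 h under both labels. Its 6 h values were 0.22 FPKM in WT and 0.65 in Zak-KO, about 2.24 and 6.69 fragments. Only the Zak-KO value is above the limit set here, and both genes had their highest value at 6 h under both labels. In Csf2, 18 of 777 stretches of 24 bases are shared with another gene's transcript, 2 of them with 50 or more genes, so a small part of its fragments may belong elsewhere.

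Il21 encodes the follicular helper cytokine IL-21 and lies on chromosome 3 (37222759 to 37232636, minus strand). Its resting values were 0.06 FPKM in WT and 0.08 in Zak-KO, those at 6 h 0.31 and 0.17, and both at 48 h 0.06. The 6 h values correspond to about 15.4 and 8.54 fragments of its long transcript. It also carries 9 stretches of 24 bases shared with 50 or more genes, so its low values are uncertain. Its neighbour Il2, 96.8 kb away on the same strand, encodes the T cell growth factor IL-2 and stood at 0.07 and 0 FPKM at rest, 12.07 and 8.65 at 6 h, and 13.60 and 11.42 at 48 h.

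Ifng encodes interferon-gamma and lies on chromosome 10 (118441046 to 118445892, plus strand). It was listed at 0 in WT and stood at 0.05 FPKM in Zak-KO at rest, at 0.25 and 0.10 at 6 h, and at 0.23 and 0.05 at 48 h. The WT values at 6 and 48 h correspond to about 4.88 and 4.75 fragments, and all 3 Zak-KO values to fewer than 3. At this depth a difference in Ifng between the labels was not detectable.

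**Figure D2:**
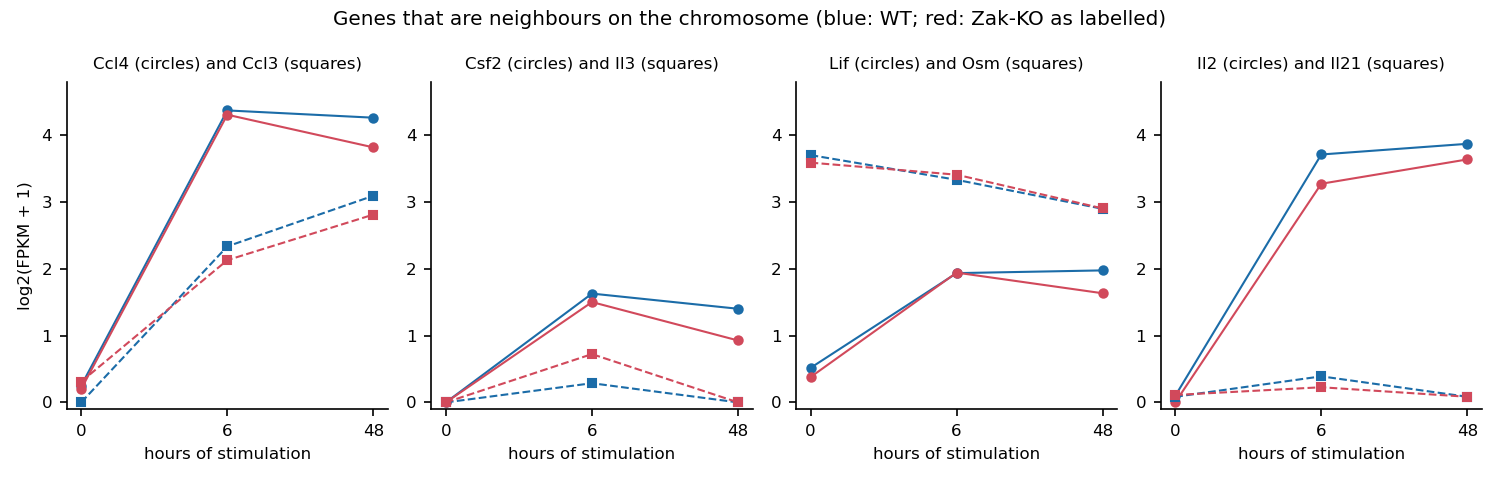
Levels as log2(FPKM + 1) (y axis) by hours of stimulation (x axis, times spaced evenly) for 4 pairs of genes that are neighbours on their chromosome, 1 library per point, WT in blue and Zak-KO as labelled in red. Ccl3 and Ccl4 both leave the resting level, while Il3 and Il21 stay below 1 on this scale beside Csf2 and Il2, and Osm declines beside Lif.

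Of the 10 members, 7 lie on chromosome 11: Ccl5 and the 3 pairs Osm and Lif, Csf2 and Il3, and Ccl3 and Ccl4. Of the other nearest protein-coding genes within 100000 bases, Castor1 beside Osm stood at 15.91 FPKM at 0 h and 7.72 at 48 h in WT and at 16.08 and 6.91 in Zak-KO. Ccl9, which lies between Ccl5 and Ccl3, stood at 1.06 to 1.13 FPKM at 0 and 6 h. At 48 h it stood at 0.61 in WT and 2.25 in Zak-KO, 2.02-fold apart on FPKM + 1. Cetn4, beside Il21, stood at 0.24 FPKM at rest under both labels and at 1.71 in WT and 2.29 in Zak-KO at 48 h. Acsl6, Heatr9, Hormad2 and Wfdc17 were below 1 FPKM in every library; these 4 were named after their values were seen.

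The members did not share a time course. A member was to be called early or late where its 6 h or its 48 h value was 2-fold above the other under both labels, and none met this. Over the 6 libraries, log2(FPKM + 1) of Ccl4 correlated with Lif at 0.996, with Csf2 at 0.973 and with Xcl1 at 0.973 (Pearson's r). Pairs among the 5 stimulated members ranged from 0.864 (Ccl3 with Xcl1) to 0.996. Osm correlated with Ccl3 at -0.911 and Ccl5 with Xcl1 at 0.253. These correlations rest on 3 times and 2 labels and are given as a description. Among 8031 other named genes averaging at least 5 FPKM, the 3 most like Ccl4 were Slc35f2 (0.9998), Ncs1 (0.9997) and Nolc1 (0.9997), and 807 genes had an r above 0.95. Most like Xcl1 were Orai1, Polr1b and Gmppb (0.9974 to 0.9987), most like Ccl3 were Tada2a, Rad23b and Atg3 (0.9989 to 0.9995), and most like Osm were Espn, Atxn3 and Atrn (0.9970 to 0.9985). For Lif they were Ddx3x, Urb2 and Psmc4 (0.9966 to 0.9969) and for Csf2 Larp4, Wdr77 and Rnmt (0.9952 to 0.9968). Ccl5 had 0 genes above 0.95, and its nearest were Appbp2, Ndst1 and Vav1 (0.9151 to 0.9382).

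Between the labels, 0 of 10 members differed by 2-fold at any time. At 0 h, 0.168% of all genes were higher and 0.0596% lower in Zak-KO; at 6 h the shares were 0.0922% and 0.0976%, and at 48 h 1.28% and 0.298%. With a mean of 1 FPKM or more required they were 0.222% and 0.0483% at 0 h, 0.116% and 0.135% at 6 h, and 1.8% and 0.435% at 48 h. At 0 h the difference farthest from 0 was that of Ccl5 (log2 -0.41, 1.71 against 2.59 FPKM). It lay just below the central 95% of the 6101 genes with a mean of 1 to 20 FPKM (-0.38 to 0.40). The Ccl5 values rest on only about 14.4 and 21.9 fragments. At 6 h it was that of Il3 (0.44), which rests on the few fragments given above. The 5 stimulated members were close at 6 h, with log2 differences of -0.06 for Ccl4, 0.13 for Xcl1, -0.21 for Ccl3, 0.01 for Lif and -0.13 for Csf2. With libraries scaled to a common sum that of Ccl4 was 0.01.

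At 48 h, 6 members were lower in Zak-KO, 2 higher and 2 equal. Lower were Csf2 (log2 -0.47, 0.90 against 1.64 FPKM), Ccl4 (-0.44, 13.07 against 18.14), Ccl5 (-0.35, 2.54 against 3.52), Lif (-0.34, 2.10 against 2.93), Ccl3 (-0.28, 6.01 against 7.52) and Ifng (-0.23). Xcl1 was higher (0.44, 8.75 against 6.21 FPKM), and Osm was at 6.47 against 6.44, a difference that turned to -0.01 with a common sum and -0.14 with median ratio scaling. The median over the 10 was -0.25, beside 0.01 over all genes, and between -0.26 and -0.34 with the other scalings. Of 6101 genes with a mean of 1 to 20 FPKM, the central 95% ran from -0.37 to 1.06 at 48 h. Csf2 and Ccl4 thus lay just below that range, and Ccl5, Lif, Ccl3, Xcl1 and Osm inside it. The Csf2 values rest on about 11.5 fragments in Zak-KO and 22.4 in WT, those of Ccl4 on about 138 and 205. The range was lopsided towards higher values in Zak-KO, in the library with the fewest genes at 0, whose part in these differences was not tested. No replicate shows whether differences of this size separate the labels or only these 2 cultures.

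**Figure D3:**
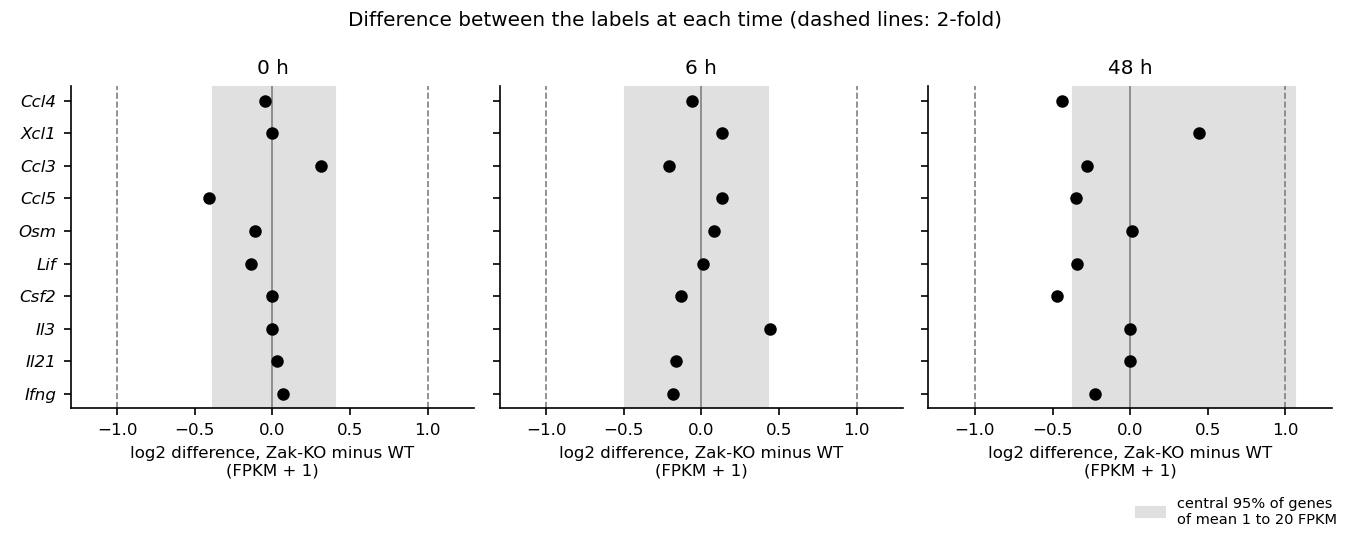
Difference in log2(FPKM + 1) between Zak-KO as labelled and WT (x axis) for each member (y axis) at 0, 6 and 48 h, 1 library per label, with the central 95% of 6101 genes with a mean of 1 to 20 FPKM in grey and 2-fold as dashed lines. No member reaches a dashed line; at 48 h Ccl4 and Csf2 lie at -0.44 and -0.47, below the lower grey edge of -0.37, and Xcl1 at 0.44.

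Set among other secreted factors, the members were of middle or low level. Of 57 other cytokine and chemokine genes listed, 50 were in the table and 20 reached 1 FPKM in any library, as did 7 members. By highest value Ccl4 ranked 9 of these 27, Xcl1 10, Osm 13, Ccl3 14, Ccl5 17, Lif 19 and Csf2 22. Above them stood Mif (highest 1069.19 FPKM), the lymphotoxin genes Ltb (521.44) and Lta (93.03), Il16, Tnf (141.6), Tgfb1, Il11 and Clcf1. Of the 15 with a mean of 1 FPKM or more, 4 were 2-fold higher at 6 h in WT and the same 4 in Zak-KO: Il2, Tnf, Lta and Mif. At 48 h, 5 were higher and 4 lower in WT, and 5 higher and 3 lower in Zak-KO, with Ltb, Il16 and Clcf1 lower under both labels. Between the labels, 1 was higher by 2-fold in Zak-KO at 0 h (Il11), 0 at 6 h and 2 at 48 h (Il11 and Ccl9), and 0 were lower at any time. Il11, another cytokine of the IL-6 family, stood at 11.3, 11.16 and 2.22 FPKM in WT at 0, 6 and 48 h and at 24.63, 11.11 and 92.73 in Zak-KO, so that its 48 h value lay below the resting one in WT and above it in Zak-KO. Tnf and Lta resembled Xcl1 in being lower at 48 h than at 6 h: Tnf stood at 127.4 and 141.6 FPKM at 6 h and at 40.01 and 35.72 at 48 h. Ccl22 and Spp1 had their highest value at 48 h, as Ccl3 did, with Ccl22 listed at 0 at rest and at 1.44 FPKM in WT and 3.23 in Zak-KO. The 30 that stayed below 1 FPKM had a highest value of 0.89. They include the helper lineage cytokines Il4, Il5, Il13, Il17a and Il17f, at 0.55 FPKM or less in every library and named after their values were seen. Ifng and Il21 stood at 0.31 FPKM or less.

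**Figure D4:**
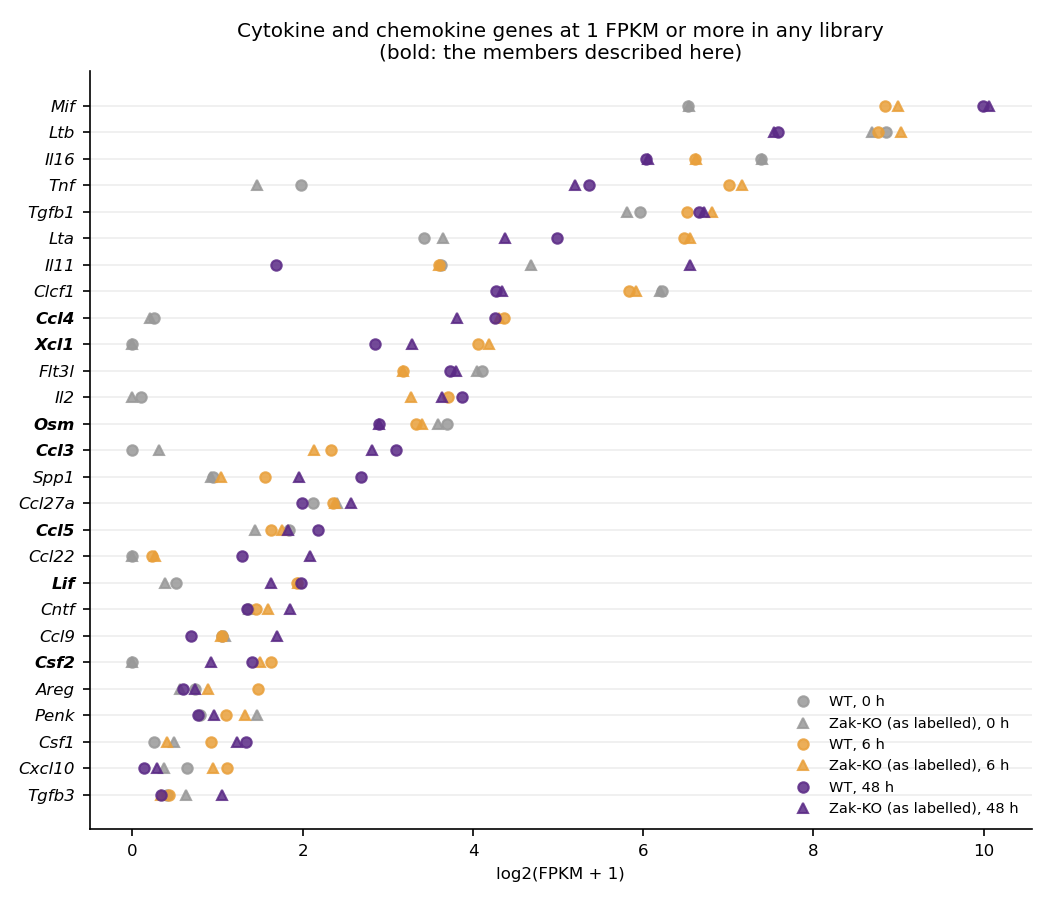
Levels as log2(FPKM + 1) (x axis) of the 7 members (bold) and 20 other cytokine and chemokine genes that reached 1 FPKM in any library (y axis, ordered by highest value), by time (colour) and label (circle WT, triangle Zak-KO as labelled), 1 library per point. Ccl4, Xcl1, Ccl3 and Csf2 start at or near 0 as Il2 does, and Osm starts at its highest value, as Flt3l and Clcf1 do.

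Receptors for the members were present in part in the same libraries. All 15 listed were in the table, and 9 reached 1 FPKM in any library. Of the 8 averaging at least 1 FPKM, 2 were higher and 2 lower by 2-fold at 48 h under both labels, and none differed 2-fold between the labels. Ifngr1, the ligand-binding chain for interferon-gamma, stood at 444.52 FPKM at 0 h, 237.46 at 6 h and 33.29 at 48 h in WT and at 513.90, 224.75 and 33.53 in Zak-KO, 13.0-fold and 14.9-fold lower at 48 h. Its partner Ifngr2 was 3.92-fold and 3.83-fold lower at 48 h. Il21r, the receptor of IL-21, stood at 52.57, 97.51 and 77.25 FPKM in WT, beside 390.52, 643.87 and 497.72 for its shared chain Il2rg. Il3ra and Csf2ra, the specific chains for IL-3 and GM-CSF, were 2.42-fold and 3.14-fold higher at 48 h in WT and 2.89-fold and 2.54-fold in Zak-KO, at 7.15 to 8.14 FPKM. Their signalling chain Csf2rb was at 0.51 FPKM or less. Il6st stood between 20.35 and 49.56 FPKM, Lifr at 2.39 or less and Osmr at 0.10 or less. At 48 h Lifr stood at 0.70 FPKM in WT and 2.39 in Zak-KO, 1.99-fold apart on FPKM + 1, just short of the rule. Of the chemokine receptors Ccr1 reached 0.11, Ccr3 0.02 and Xcr1 1.23 FPKM. Csf2rb, Osmr, Ccr1 and Ccr3 were named after their values were seen.

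Of 37 regulators of cytokine genes, 36 had a mean of 1 FPKM or more, and 8 of them were 2-fold higher at 6 h, the same 8 under both labels, among them Irf4, Nfatc1, Nfkb1, Bcl6, Zfp36 and Zfp36l1. Nfatc1, an NFAT factor, stood at 31.47 FPKM at rest and 104.18 at 6 h in WT and at 31.05 and 137.68 in Zak-KO. Zfp36, whose protein tristetraprolin marks AU-rich cytokine mRNAs for decay, stood at 68.43, 159.16 and 66.67 FPKM in WT and at 57.98, 170.12 and 75.72 in Zak-KO. Mapk14, a p38 kinase that Zak can activate, stood between 33.69 and 53.27 FPKM. Tbx21, which encodes the Th1 factor T-bet and was the 1 regulator below 1 FPKM in every library, reached 0.52; it was named after its values were seen. At 48 h, 6 of the 36 were higher and 7 lower under each label, Irf4, Nfatc1 and Zfp36l1 among the higher and Ets1, Stat4 and Zfp36l2 among the lower under both. None of the 36 differed 2-fold between the labels at any time.

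Several members are also made by natural killer (NK) cells, CD8 T cells, memory T cells, mast cells and myeloid cells, and their markers were read in the same libraries. The 9 NK and innate lymphocyte markers summed to 8.51, 7.54 and 1.62 FPKM at 0, 6 and 48 h in WT and to 10.57, 8.47 and 2.3 in Zak-KO. Prf1 made up 6.18, 4.63 and 0.87 FPKM of this in WT and 6.56, 5.3 and 0.65 in Zak-KO, and Ncr1 was at 0.09 or less in every library. Not every marker was lower at 48 h than at rest: Tyrobp stood at 0.33 and 0.5 FPKM in WT and at 0.79 and 0.87 in Zak-KO. The part of these cells in the members' values was not tested. The 4 mast cell and basophil markers summed to 0.83 to 4.09 FPKM and the 9 myeloid markers to 35.29 to 43.36. Cst3 made up 30.07 to 42.35 of the latter, and Cd14 was at 0.04 or less. The myeloid sum hid opposite courses. Cst3 was higher at 48 h than at rest under both labels. S100a8 and S100a9 stood at 4.3 and 4.41 FPKM in WT and 3.48 and 3.47 in Zak-KO at rest. At 48 h both were at 0 in WT and at 0.34 and 0.6 in Zak-KO. The part of myeloid cells in the members' values was not tested either. The 2 CD8 markers summed to 8.88 to 12.78 FPKM, with Cd8a at 1.02 or less, and 6 B cell markers to 3.33 to 7.64. Sox13 was the 1 of 3 gamma delta markers found, at 0.06 or less. The 5 NKT and memory markers summed to 12.43, 47.26 and 75.93 FPKM in WT and to 13.45, 49.80 and 76.81 in Zak-KO, mostly from Il2rb. The sum was above rest at 6 h and 48 h, as the stimulated members were. From 6 h to 48 h it was higher again. Of the 5 stimulated members, Ccl4, Xcl1 and Csf2 were lower at 48 h than at 6 h under both labels, and only Ccl3 was higher under both. The markers within this list differed. Zbtb16 stayed low, at 0.14, 0.19 and 0.1 FPKM in WT and at 0.18, 0.1 and 0.37 in Zak-KO. Cd44 and Ly6c2, like Il2rb, were higher at 48 h than at rest under both labels. Cxcr3 was highest at 6 h (4.02 FPKM in WT, against 0.38 at 48 h). The part of these cells in the result was not tested.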

How the data were processed

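RNA sequencing values were taken from 1 deposited table with 18446 genes and 6 libraries, 1 per group, and no test was fitted. The values are FPKM per gene as the authors deposited them. Per the submitters' processing notes, Bowtie and RSEM were used on mm10; for versions, transcript set and strand setting the sources used here say nothing. Symbols were found for 18326 identifiers. No column was left out. Read totals are unknown.

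Libraries were compared as differences of log2(FPKM + 1), which understate the change of low genes. Genes 2-fold or more apart were counted, over all genes or over the 10347 with a mean of 1 FPKM or more, as said. Members and lists were chosen with earlier results of these data known. The value of 1 fragment came from genes of 1000 to 1600 bases with 1 GENCODE M21 transcript, as the median of FPKM times length in kb between 0.045 and 0.08 (48 to 68 of 477 genes per library). Chemosensory receptor genes, planned for this, gave 27 and were too few. Named genes were the members, list genes at 1 FPKM or more in any library and the 3 genes most like each member. No protein sequences were used here, and some list genes are not reported here. Alternatives changed the pseudocount, filter, scaling or fold. The calculation was tested on simulated data. Python 3.11.15, numpy 2.4.6, pandas 2.3.3 and matplotlib 3.10.9 were used.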

Additional observations from a re-analysis of the deposited data

Results flagged for a closer look

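Ccl5 at 6 h stood below its resting level in WT (log2 change -0.22, 2.09 against 2.59 FPKM) and above it in Zak-KO as labelled (0.32, 2.39 against 1.71 FPKM), so the 1 library of each label moved in the opposite direction. The values rest on about 14.4 to 21.9 fragments each, neither change reached 2-fold, and the difference between the labels was not tested.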

How the results depend on the processing

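No paired analysis was possible because the labels number no replicates that would pair libraries of 2 groups; a fit with the 3 times as a block was not run. Among the 7 members averaging at least 1 FPKM, the number 2-fold apart is 5 at 6 h and 5 at 48 h in WT, 5 at 6 h and 4 at 48 h in Zak-KO, 1 from 6 h to 48 h in WT and 0 otherwise. The 5 stood at 0.43 FPKM or less at rest and met this mean only through stimulated values, so the filter favours such counts. The shares of all genes under the same filter are given above. With a pseudocount of 5 FPKM it was 2 at 6 h in WT, 3 at 48 h in WT, 0 from 6 h to 48 h in WT, 2 at 6 h in Zak-KO and 3 at 48 h in Zak-KO, since this setting shrinks low genes. With a pseudocount of 0.1 it was 1 between the labels at 0 h, which is Ccl3 near the detection limit, and 5 at 48 h in Zak-KO, where Csf2 (log2 3.32) then passed, so that both labels had 5. With a mean of 5 FPKM required, 3 members were left and 2 passed at 6 h and at 48 h under each label. These 2, Ccl4 and Xcl1, likewise met the mean only through their stimulated values. With a 4-fold rule it was 3 at 6 h and 3 at 48 h in WT, 0 from 6 h to 48 h in WT and 2 at 6 h in Zak-KO. With a 1.5-fold rule it was 2 from 6 h to 48 h and 6 at 48 h against 0 h under each label, 1 of these 6 lower. With median ratio scaling it was 1 from 6 h to 48 h in Zak-KO, and that at 48 h against 0 h in Zak-KO stayed at 4. Of the log2 changes of single members in 9 comparisons, 12 came to pass 2-fold with a pseudocount of 0.1, 10 no longer did with 5, and no value that passed 2-fold changed sign with any pseudocount or scaling tried. Medians under other pseudocounts and scalings were added after the data were seen; that of the 10 members at 6 h in WT was 2.13 with a pseudocount of 0.1 and 0.29 with 5, against 0.87, and at 6 h in Zak-KO 2.89 and 0.31, against 1.11. At 48 h it was 2.12 and 0.29 in WT, against 0.87, and 1.5 and 0.2 in Zak-KO, against 0.66. The median gene between the labels at 48 h moved from -0.01 to -0.17 with median ratio scaling. Depth limits Ifng, Il3 and Il21 most, and Csf2 and Ccl5 at every time.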
